A study of Mus musculus with 6 samples.

Results

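The genes described here are the Mos and MAP kinase pathway of the mouse oocyte, a set of 8 genes chosen by symbol, of which 5 had a probe set annotated to that gene alone and could be measured, out of 19938 such genes on the array. They are Mos, Map2k1, Map2k2, Rps6ka3 and Spin1, each with 1 probe set. The other 3 members, Mapk3, Rps6ka1 and Rps6ka2, were not analysed here. Levels came from oocytes of mice homozygous for a Brwd1 mutation and from wildtype mice, both on a mixed B6/C3H background, and both at the germinal vesicle stage, before the meiotic divisions resume. Females of both groups were 2 to 6 months old and had received 5 IU of equine chorionic gonadotropin, which drives follicle growth, 44 h before collection. Each group had 3 samples, each a pool of 100 oocytes on its own array. The labels do not describe the mutant allele. They also leave unsaid whether different mice gave each pool, so every p-value here rests on sample-to-sample spread that may be technical in part or in whole.

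Mos is a germ cell kinase at the head of a cascade: it phosphorylates the kinases MEK1 and MEK2, made by Map2k1 and Map2k2, these phosphorylate the MAP kinases ERK1 and ERK2, and the MAP kinases activate ribosomal S6 kinases (RSK), of which Rps6ka3 makes one. In mouse oocytes the Mos messenger RNA is stored and translated only once maturation begins, and the cascade then holds the egg at the second meiotic metaphase until fertilisation. Spin1 makes spindlin, an abundant maternal protein that binds methylated histone H3 and is phosphorylated in maturing mouse oocytes in a way that depends on Mos. Levels of RNA at the germinal vesicle stage therefore describe the stored supply, and the arrays did not measure protein or kinase activity.

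The arrays gave RMA levels, in which background is corrected and probes are summarised on the log2 scale, so a difference of 1 is a 2-fold difference. Pearson's r across the probe sets of a pair of arrays was 0.994 to 0.995 within groups and 0.992 to 0.993 between groups. The first principal component, with 37.8% of the variance, held mutant samples at 9.2 to 17.4 and wildtype samples at -18.3 to -8.1. The second, with 19.0%, set wildtype 3 off from the remaining arrays. Brwd1 checked the labels: it was at 4.41, 4.56 and 4.50 in mutant 1, 2 and 3 and at 8.91, 9.08 and 8.98 in wildtype 1, 2 and 3. The mutant levels lie at the background guide of 4.48, the 95th percentile of 1210 probe sets of olfactory and vomeronasal receptors. Of 12 oocyte markers, 12 lay above this guide, and their median level was 11.57 in mutant and 11.51 in wildtype samples.

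None of the 5 measured genes of the pathway passed the test for a difference between Brwd1 mutant and wildtype oocytes, at a limma Benjamini-Hochberg adjusted p under 0.05 over 23410 probe sets. In the whole comparison 0.137% of probe sets passed, so a count of 0 among 5 is no result about these genes. At an unadjusted limma p under 0.05 the count was also 0 of 5, where 14.9% of all genes met that mark, 7.53% higher and 7.33% lower in the mutant. In all 5 genes the mutant and wildtype ranges overlapped, where 19.8% of all genes had groups that did not. The log2 difference was above 0 in 2 genes, Mos and Rps6ka3, and below 0 in 3, Map2k1, Map2k2 and Spin1, and it lay between -0.083 and 0.033. The median absolute difference over all genes was 0.090, which is larger than that of each of the 5.

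Start regions of the genes for the MEK pair and for spindlin are shown as the sequence context of the members that had such a region available. RefSeq, on build GRCm38.p6, gave windows for 3 of the 5 measured genes: 1 each for Map2k1 and Map2k2 and 3 for Spin1, of which the first is printed. Each window runs 5′ to 3′ along the gene over 300 bases, and capitals mark GGGCGG or its reverse complement CCGCCC, the GC box that binds Sp1-type factors. The Map2k1 window is chr9:64253556-64253855 on the minus strand, that of Map2k2 is chr10:81105665-81105964 on the plus strand and that of Spin1 is chr13:51100630-51100929 on the plus strand. The RefSeq start of the Spin1 gene, chr13:51097934, lies outside all 3 of its windows. The start used in oocytes was not measured.
Map2k1: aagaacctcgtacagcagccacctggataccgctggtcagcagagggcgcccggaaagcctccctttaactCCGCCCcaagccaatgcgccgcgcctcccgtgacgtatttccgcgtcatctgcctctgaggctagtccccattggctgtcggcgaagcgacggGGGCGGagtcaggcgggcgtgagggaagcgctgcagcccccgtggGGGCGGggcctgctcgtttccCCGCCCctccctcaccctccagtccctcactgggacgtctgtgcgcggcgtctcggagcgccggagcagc
Map2k2: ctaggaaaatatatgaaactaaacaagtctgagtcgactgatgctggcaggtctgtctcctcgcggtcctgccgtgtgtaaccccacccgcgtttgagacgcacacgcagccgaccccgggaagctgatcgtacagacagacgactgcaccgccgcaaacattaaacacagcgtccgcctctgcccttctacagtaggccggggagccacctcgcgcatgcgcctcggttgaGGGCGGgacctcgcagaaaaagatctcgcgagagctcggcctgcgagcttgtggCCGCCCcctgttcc
Spin1: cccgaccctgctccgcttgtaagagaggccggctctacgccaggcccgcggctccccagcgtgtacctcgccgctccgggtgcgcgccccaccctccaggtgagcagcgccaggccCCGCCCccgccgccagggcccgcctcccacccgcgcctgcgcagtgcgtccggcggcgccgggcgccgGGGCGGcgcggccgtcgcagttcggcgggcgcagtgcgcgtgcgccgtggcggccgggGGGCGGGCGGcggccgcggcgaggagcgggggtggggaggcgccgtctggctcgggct
G and C made up 69.0% of the Map2k1 window, 60.7% of that of Map2k2 and 82.7% of the printed window of Spin1, where the median of 32851 windows was 52.7%. They hold 31, 28 and 51 CpG dinucleotides in the same order of genes, against a median of 7. The other Spin1 windows differ from each other: that at chr13:51101297-51101596 has 72.0% G and C with 36 CpG and 3 GC boxes, and that at chr13:51132547-51132846 has 50.7% with 2 CpG and 0 GC boxes. The GC box, searched on both strands, occurred 4 times in Map2k1, 2 times in Map2k2 and 4 times in the printed Spin1 window, in which 2 of the copies share bases, and 35.7% of all windows hold at least 1. The letters TATAAA, searched on both strands, are in none of the 3 printed windows and in 13.6% of all. These are descriptions of letters and were not tested against the levels.

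Mos lay far up the range of array signals. It was at 10.43, 10.45 and 10.45 on the log2 scale in mutant 1, 2 and 3, against 10.40, 10.52 and 10.37 in wildtype 1, 2 and 3. The mutant values fell inside the wildtype range, and the 6 arrays spanned 0.15. The log2 difference was 0.013 (SE 0.061, 95% confidence interval -0.13 to 0.16, n = 3 per group; limma, adjusted p = 0.936), so the interval runs from 0.912-fold to 1.12-fold. The sign of so small a value was not stable: it was negative after centring each array on its median. By wildtype signal Mos ranked 485 of 19938 genes, within the top 2.43%, and by mutant signal 459. Such ranks order the brightness of probe sets, which bind with different strength, and not the number of transcripts.

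The genes whose values followed those of Mos most closely over the 6 arrays were Fastk, Cdc42bpg and Sumo3, with Pearson's r of 0.990, 0.985 and 0.982 among 12520 genes above the background guide. As Mos itself varied by only 0.15, the likeness rests mainly on its higher value in wildtype 2. Sumo3, for example, was at 9.42, 9.44 and 9.45 in the mutant samples and at 9.41, 9.54 and 9.37 in the wildtype samples. These correlations are given as a description, over arrays that share 2 genotypes and 1 normalization.

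**Figure D1:**
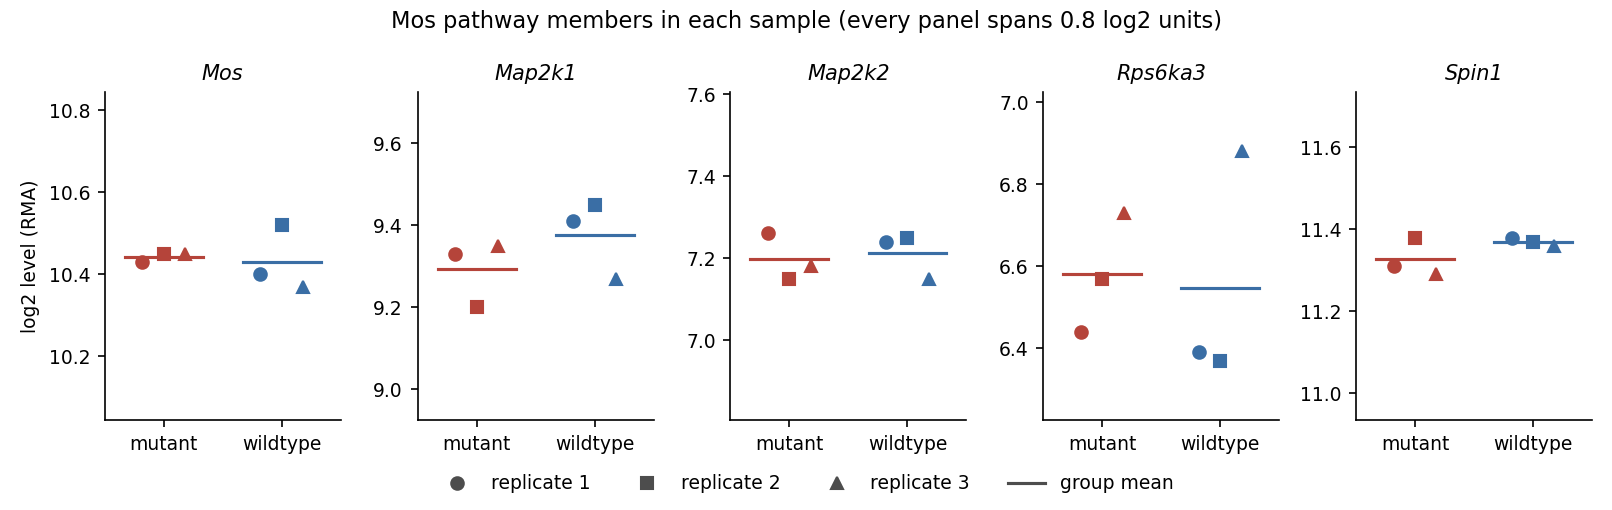
Log2 level (RMA) of each measured member in the 3 mutant and 3 wildtype samples. Symbols give the replicate number in the labels, lines the group means, and every panel spans 0.8 log2 units on its own scale; the groups overlap in all 5 genes, and Rps6ka3 is the most scattered, with wildtype 3 at 6.88.

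The MEK kinases receive the signal of Mos. Map2k1, which makes MEK1, was at 9.33, 9.20 and 9.35 in mutant 1, 2 and 3, against 9.41, 9.45 and 9.27 in wildtype 1, 2 and 3. Wildtype 3 was below 2 of the mutant samples, so the groups overlapped, and mutant 2 was the lowest of all. The log2 difference was -0.083 (SE 0.074, 95% confidence interval -0.26 to 0.093, n = 3 per group; limma, adjusted p = 0.641), the most negative of the 5, and it was -0.14 without wildtype 3 and -0.037 without mutant 2. On the fold scale the interval is 0.835 to 1.07. Map2k1 ranked 1601 of 19938 genes by wildtype signal.

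Map2k2, which makes MEK2, was at 7.26, 7.15 and 7.18 in mutant 1, 2 and 3 and at 7.24, 7.25 and 7.15 in wildtype 1, 2 and 3. Each group held 1 sample at 7.15, and the 6 values spanned 0.11. The 2 groups differed by -0.017 on the log2 scale (SE 0.061, 95% confidence interval -0.16 to 0.13, n = 3 per group; limma, adjusted p = 0.921), between 0.894-fold and 1.09-fold. Its sign turned positive with cyclic loess and with a second quantile normalization. Map2k2 ranked 5555 of 19938 genes by wildtype signal.

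Rps6ka3, which makes the kinase RSK2, was the least precisely measured member. It was at 6.44, 6.57 and 6.73 in mutant 1, 2 and 3, against 6.39, 6.37 and 6.88 in wildtype 1, 2 and 3. Wildtype 3, the array set off above, held the highest of the 6 values, while wildtype 1 and 2 lay below every mutant sample. Mutant minus wildtype was 0.033 on the log2 scale (SE 0.15, 95% confidence interval -0.33 to 0.39, n = 3 per group; limma, adjusted p = 0.934), and without wildtype 3 it was 0.20 (limma, adjusted p = 0.411). The interval over all arrays, 0.798-fold to 1.31-fold, is more than 2 times as wide on the log2 scale as that of Mos, and the residual spread of Rps6ka3 was at percentile 91.5 of all genes. It ranked 6860 of 19938 by wildtype signal, and its sign was negative after median centring.

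Spin1 was the brightest member, at rank 71 of 19938 by wildtype signal and 75 by mutant signal. Its level was 11.31, 11.38 and 11.29 in mutant 1, 2 and 3, against 11.38, 11.37 and 11.36 in wildtype 1, 2 and 3. The wildtype samples lay within 0.02 of each other; mutant 1 and 3 were below them and mutant 2 matched the highest. On the log2 scale the difference was -0.043 (SE 0.055, 95% confidence interval -0.17 to 0.086, n = 3 per group; limma, adjusted p = 0.749), between 0.887-fold and 1.06-fold. Its residual spread was at percentile 4.24 of all genes, the smallest of the 5.

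**Figure D2:**
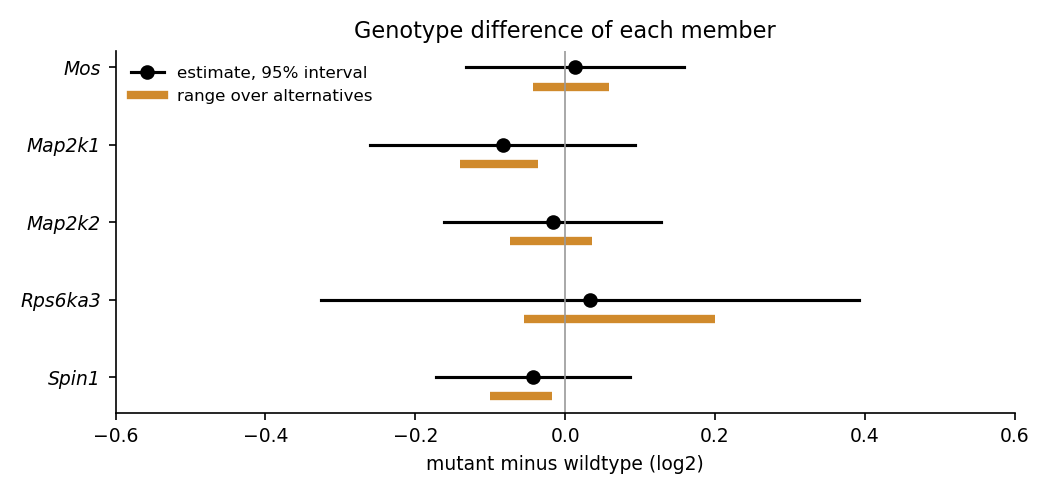
Mutant minus wildtype difference of each measured member on the log2 scale. Points and black lines are the limma estimate and its 95% confidence interval over all 6 arrays, and the orange bars span the estimates under 16 alternatives; every black interval covers 0, from -0.33 to 0.39 for Rps6ka3 and from -0.17 to 0.086 for Spin1.

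**Figure D3:**
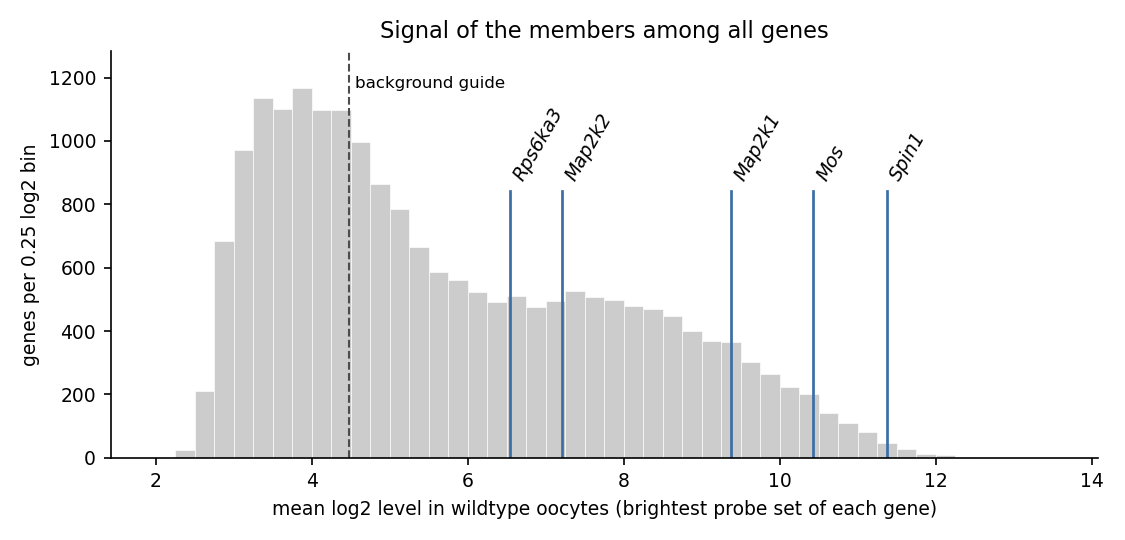
Mean log2 level in wildtype oocytes of the brightest probe set of each of 19938 genes, as genes per bin of 0.25, with the measured members as vertical lines and the background guide of 4.48 as a dashed line. All 5 members lie above the guide, from Rps6ka3 at 6.55 to Spin1 at 11.37.

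Among genes around the cascade, none passed the test. Of 81 genes in 5 lists, 74 were measured, and 0 of them reached a limma adjusted p under 0.05. At an unadjusted limma p under 0.05 there were 9 of 74 genes, 5 higher and 4 lower in the mutant, or 12.2%, where 14.9% of all genes met that mark. The groups did not overlap at 14 of 74, or 18.9%, against 19.8% of all genes. The median difference over the 74 genes was 0.027, and over all genes it was 0.013.

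Upstream, the list of Ras proteins, Raf kinases and scaffolds of the ERK module had 14 measured genes of 18, with differences from -0.16 to 0.14 and a median of -0.058. At an unadjusted p under 0.05 there were 0 of these 14. The smallest p-values belonged to Lamtor3, a scaffold that brings MEK1 to endosomes, at 0.10, to Araf, a Raf kinase, at -0.15 and to Sos1, a Ras exchange factor, at -0.11 (limma, adjusted p = 0.491, 0.534 and 0.542). Braf, a kinase that activates MEK in most somatic cells, was at 7.32, 7.03 and 7.47 in the mutant samples and at 7.28, 7.54 and 7.47 in the wildtype samples, and its groups overlapped.

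Downstream, 15 of 16 genes for kinases and substrates that depend on ERK were measured, with a median difference of 0.030. At an unadjusted limma p under 0.05 there were 2, both lower in the mutant, or 13.3%, where 14.9% of all genes met that mark. Mknk1, a kinase that ERK activates and that phosphorylates the cap-binding protein eIF4E, was at 8.94, 8.69 and 8.84 in mutant 1, 2 and 3, against 8.98, 9.09 and 9.09 in wildtype 1, 2 and 3. The groups did not overlap, but the difference of -0.23 did not pass (SE 0.080; limma, adjusted p = 0.272). Mapk1ip1, which encodes a MAP kinase interacting protein, was at -0.19 and Wee1, a kinase that inhibits Cdk1, at -0.22 (limma, adjusted p = 0.280 and 0.355). Fbxo43, which makes the inhibitor of the anaphase-promoting complex that RSK phosphorylates in frog eggs, was named here after its values were seen, at 10.50, 10.51 and 10.57 in the mutant samples and 10.58, 10.66 and 10.59 in the wildtype samples. The difference for Fbxo43 was -0.083 (SE 0.056; limma, adjusted p = 0.535).

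Phosphatases and other inhibitors of the ERK pathway held the pathway gene with the smallest p-value. Of 19 genes, all measured, 0 passed, 13 had differences above 0 and 6 below, and the median was 0.067. An unadjusted limma p under 0.05 was met by 4, 3 higher and 1 lower in the mutant. That is 21.1%, against 14.9% of all genes, a description with no test. Dusp1, a phosphatase that removes phosphate from MAP kinases, was at 9.66, 9.67 and 9.62 in mutant 1, 2 and 3, against 9.31, 9.29 and 9.31 in wildtype 1, 2 and 3. Every mutant sample lay above every wildtype sample, by more than the spread within either group. The log2 difference was 0.35 (SE 0.052, 95% confidence interval 0.22 to 0.47, n = 3 per group), 1.27-fold, with a limma adjusted p of 0.0962. With trend and robust settings for the variance the adjusted p was 0.0283, and under the other alternatives it reached 0.247.

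Spred1, a membrane protein that inhibits Ras signalling to Raf, was at 6.84, 6.54 and 6.50 in mutant 1, 2 and 3, against 6.85, 7.14 and 7.18 in wildtype 1, 2 and 3. The groups were separated by only 0.01, between mutant 1 and wildtype 1, and the difference of -0.43 did not pass (SE 0.12; limma, adjusted p = 0.220). Pea15a, which holds ERK in the cytoplasm, was at 0.17 with levels near the background guide (limma, adjusted p = 0.227).

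**Figure D4:**
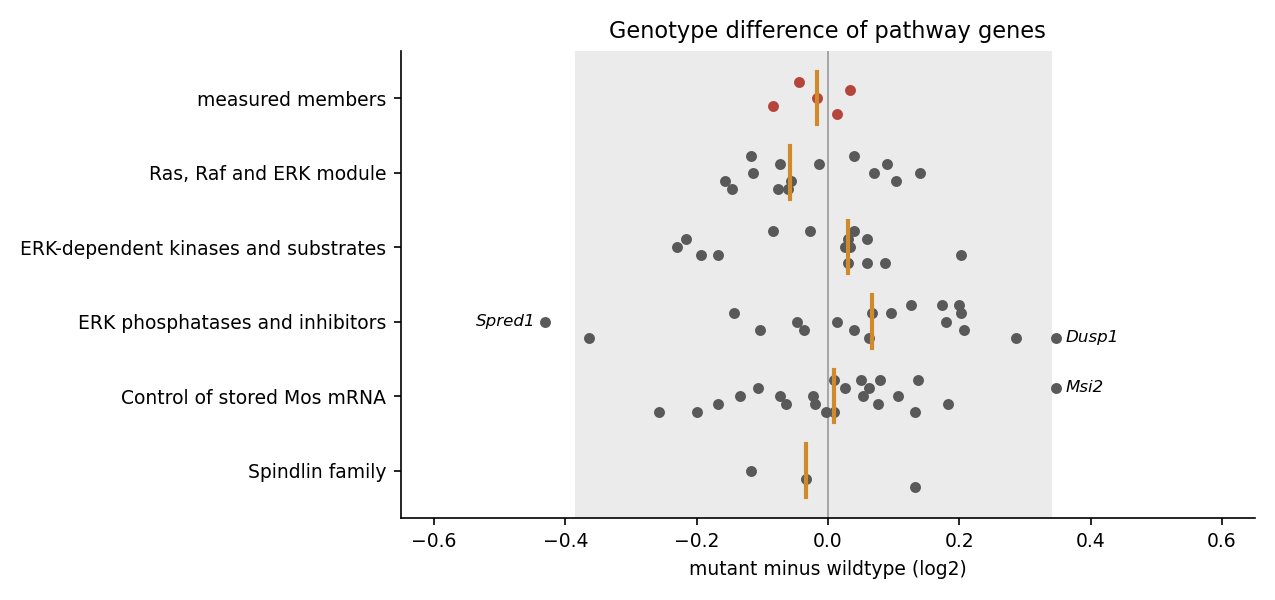
Mutant minus wildtype difference on the log2 scale for the 5 measured members and for each gene of the 5 lists, 1 point per gene, with list medians in orange and the central 95% of all genes, from -0.38 to 0.34, shaded. Dusp1 and Msi2, both at 0.35, and Spred1, at -0.43, are the 3 listed genes outside the shaded band.

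Proteins that bind, store or deadenylate maternal messenger RNA such as that of Mos gave no call among 23 measured genes of 24, with a median difference of 0.010. Msi2, an RNA-binding protein of the Musashi family, was at 7.92, 8.01 and 7.88 in mutant 1, 2 and 3, against 7.54, 7.60 and 7.63 in wildtype 1, 2 and 3. The groups did not overlap, and the difference of 0.35 did not pass over all probe sets (SE 0.062; limma, adjusted p = 0.122). Cpeb3, a relative of the cytoplasmic polyadenylation factor Cpeb1, was at -0.26, and Btg4, an adaptor of maternal RNA deadenylation, at 0.13 (limma, adjusted p = 0.280 and 0.324). Cpeb1 itself, which binds the control element in the Mos transcript and is named here for that role, was at 10.99, 11.08 and 11.02 in the mutant samples and 10.98, 10.93 and 10.99 in the wildtype samples. Its difference was 0.063 (SE 0.056; limma, adjusted p = 0.636), with overlapping groups.

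**Figure D5:**
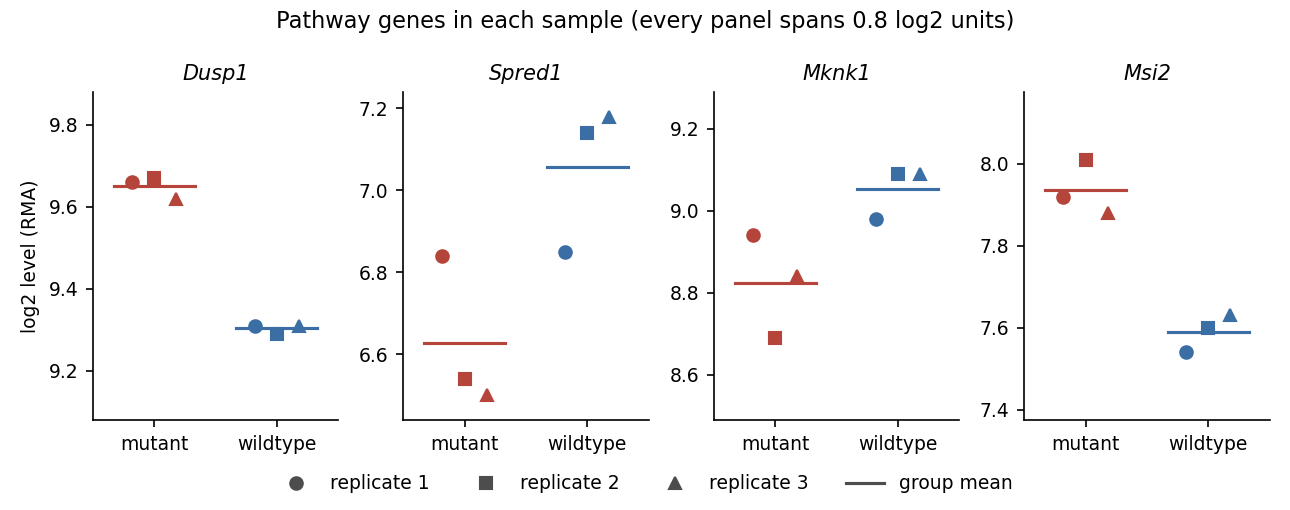
Log2 level (RMA) in the 3 mutant and 3 wildtype samples of Dusp1, Spred1, Mknk1 and Msi2, the genes with the smallest p-values of their lists or next to it. Symbols give replicate numbers, lines group means, and every panel spans 0.8 log2 units; Dusp1 lies at 9.62 to 9.67 in the mutant and at 9.29 to 9.31 in the wildtype samples, and none of the 4 passed the test.

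Relatives of spindlin gave no call either: of 3 measured genes, Spin2c was at 0.13, Spindoc, whose product binds spindlin, at -0.12 and Spin4 at -0.033 (limma, adjusted p = 0.521, 0.539 and 0.923). The remaining MAP kinase, MAP kinase kinase and S6 kinase genes, 17 found by their symbols alone after the data were seen and 2 of them also in the list of ERK-dependent kinases, had differences from -0.51 to 0.31 and a median of -0.033. Of these 17, 0 passed, and 2 higher and 3 lower ones had an unadjusted limma p under 0.05, or 29.4%, against 14.9% of all genes; with 17 genes picked by symbol this is a description with no test. The most negative, Map2k6, which activates p38 kinases, was at 5.30, 5.11 and 5.13 in the mutant samples and at 5.32, 5.62 and 6.12 in the wildtype samples (limma, adjusted p = 0.293).

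Markers of other cells that a pool of oocytes could hold were mixed in level, and 0 of them passed the test. Of 14 measured markers of granulosa and cumulus cells 8 were above the background guide, and their summed level was 9.70 to 9.81 in mutant and 9.48 to 9.77 in wildtype samples on the log2 scale. The brightest was Nr5a2, a nuclear receptor of granulosa cells, at 9.21, 8.92 and 9.01 in the mutant and 8.62, 9.15 and 8.91 in the wildtype samples. Levels were summed on the linear scale before the log2, so Nr5a2 made up most of the sum in every sample. Foxl2, a transcription factor that maintains granulosa identity, was at 5.19 to 5.27 in mutant and 5.04 to 5.19 in wildtype samples, and Amh, a hormone of growing follicles, at 4.28 to 4.48 in mutant and 4.02 to 4.46 in wildtype samples. Of the 14, 10 had differences above 0, and 2 had an unadjusted limma p under 0.05, or 14.3%, against 14.9% of all genes. Both were higher in the mutant: Has2, a hyaluronan synthase of cumulus cells, at 0.49 and Amhr2, the receptor of Amh, at 0.19 (limma, adjusted p = 0.267 and 0.305). Amhr2 was below the guide in every sample. The 3 markers with differences below 0 were Inha at -0.28, Tnfaip6 at -0.15 and Inhba at -0.057.

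Of 8 markers for blood, immune or endothelial cells 6 were above the guide, and their summed level was 8.81 to 9.08 in mutant and 8.55 to 8.73 in wildtype samples, without overlap. Differences were above 0 in 7 of the 8, with a median of 0.14, where the median of all genes was 0.013. The largest was that of C1qb, at 0.90. C1qb was the only marker of this list whose groups did not overlap, and the summed levels overlap when it is left out. C1qb, a macrophage complement subunit, was at 6.71, 6.92 and 7.06 in the mutant and 5.74, 5.76 and 6.49 in the wildtype samples (limma, adjusted p = 0.162). C1qa differed by 0.18, and the macrophage receptor Csf1r, below the guide in every sample, by 0.19 (limma, adjusted p = 0.316 and 0.364). Cd68 of the same list was the 1 marker with a difference below 0, at -0.07 (limma, adjusted p = 0.808). Pecam1, an endothelial adhesion molecule, was at 7.83, 7.62 and 8.08 in the mutant and 7.57, 7.74 and 7.68 in the wildtype samples, and Ptprc, which marks white blood cells, was below the guide in every sample. Of 8 theca and stroma markers 2 were above the guide, and their summed level was 7.58 to 7.62 in mutant and 7.52 to 7.55 in wildtype samples, again without overlap. The 12 oocyte markers did the same, with a summed level of 15.05 to 15.07 in mutant and 15.00 to 15.04 in wildtype samples. The median difference was 0.05 in the oocyte list and in the theca and stroma list. The part of cells other than oocytes in the higher values of Dusp1 and Msi2 was not tested. In bulk samples such as these, fewer cells of a type and less RNA per cell cannot be told apart.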

How the data were processed

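Total RNA from pools of 100 oocytes was amplified from 1 ng and hybridised to 1-colour arrays, per the labels' protocols. The deposited values are log2 levels with 2 decimals, made by the authors with Affymetrix Expression Console 1.1 and RMA, per the submitters' processing notes. RMA brings the arrays to nearly 1 distribution, so a change in total RNA per oocyte cannot be seen, and it compresses differences near background. The number of arrays limits the precision. The array annotation gave 1 symbol for 21789 of 35556 probe sets, several for 1621 and none listed for 12146; RefSeq GRCm38.p6 held the gene identifiers of 21698 single-symbol ones.

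Mutant minus wildtype differences were fitted with limma 3.58.1 in R 4.3.3 (lmFit, eBayes, two-sided, no covariates) on all 23410 probe sets with a symbol, with Benjamini-Hochberg adjustment over these and a threshold of 0.05. No filter on level was used. A gene is read from its brightest single-symbol probe set. The fit was also run on simulated arrays that had no array effects and planted differences larger than those of any member. That run does not bear on differences as small as those of the members. Text names all measured members, the 3 smallest p-values of each list, Brwd1 and the 3 genes most like Mos; other names were chosen for their role or value. The members and lists were chosen with earlier results of these data known. Same-numbered samples showed little joint deviation (r = -0.0015, -0.031 and 0.036 for replicates 1, 2 and 3). Only mutant 3 correlated best with the wildtype sample of its own number. With 3 samples a group this check cannot exclude a pairing by number, and the main fit used none. Alternatives were a replicate block, 2 filters on low levels, other normalizations, trend and robust variance, array weights, all probe sets, gene means and leaving out each array.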

Additional observations from a re-analysis of the deposited data

How the results depend on the processing

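Of the 5 measured members, 0 passed under each of the 16 alternatives, and Map2k1 and Spin1 stayed negative throughout, from -0.14 to -0.037 and from -0.10 to -0.017. The sign of the others was not stable. Mos was at -0.043 after median centring and ran from -0.017 to 0.058 without 1 array. Map2k2 was at 0.036 after quantile normalization again and at 0.0049 after cyclic loess, and ran from -0.048 to 0.0067 without 1 array. Rps6ka3 was at -0.023 after median centring and ran from -0.055 to 0.20 without 1 array, the highest without wildtype 3. Median centring moved the median of all probe sets to -0.047, against 0.010 as deposited. Of the pathway lists 1 gene, Dusp1, passed with trend and robust variance and 0 under the other 15. Over all probe sets the count of 32 became 76 with trend and robust variance, 15 with gene means, 1 with all probe sets of the table and 1 with the replicate number as a block. Without 1 array it was 1 to 18, reaching 1 without wildtype 1, wildtype 2 or mutant 1. With 3 arrays a group, the intervals of the members reach 0.13 to 0.36 to either side on the log2 scale, and differences smaller than that could not be resolved. The cause of these changes was not tested.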
